A study of Mus musculus with 72 samples.

Results

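The genes described here are 10 genes of the integrated stress response and of the response to amino acid shortage, Ddit4, Sesn2, Trib3, Atf4, Atf3, Ddit3, Chac1, Asns, Xbp1 and Hspa5. They were chosen by name, as rows of the deposited gene table carrying these symbols, out of 56691 gene identifiers in all. The choice was made with earlier results of these data known, so shares set beside those of all genes are a description. All 10 passed the filter on low counts, and were among 18727 genes tested across the series. The RNA came from mouse early secondary ovarian follicles, in which an oocyte is enclosed by layers of granulosa cells, after 24 h in culture. Follicles had received FSH21, the hypoglycosylated form of follicle-stimulating hormone, or FSH24, the fully glycosylated form, in a dose of 10 ng/ml or 1 ng/ml, and were set against follicles given no hormone.

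Each of the 6 groups held 3 libraries. The groups with 10 ng/ml FSH21 and 10 ng/ml FSH24 carried the numbers 2, 3 and 4 and were compared with the untreated libraries of these numbers, called high-dose controls below. The groups with 1 ng/ml FSH21 and 1 ng/ml FSH24 carried the numbers 1, 5 and 6 and were compared with the untreated libraries of those numbers, the low-dose controls. The labels name no strain, age or genotype, and all groups shared one culture medium with serum albumin, fetuin and an insulin, transferrin and selenium supplement. The libraries are called biological replicates without separate animals or cultures being named, so the p-values reflect how far libraries differ, which may in part be technical. Both forms at a dose share their controls, so their 2 results are not independent. Levels are in CPM, for which each library's total was corrected by edgeR's TMM factor. Fold changes are log2 values with FSH over its controls and a standard error (SE), and a gene was called at a Benjamini-Hochberg adjusted p under 0.05 in edgeR's quasi-likelihood test.

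The integrated stress response begins with kinases that phosphorylate the translation factor eIF2α when amino acids, heme or folding capacity of the endoplasmic reticulum (ER) run short, or when double-stranded RNA appears. General translation then drops while Atf4 messenger RNA is translated better, and the ATF4 protein, paired with C/EBP-type partners, activates genes for amino acid uptake and synthesis and for tRNA charging. Among its targets are Ddit4 and Sesn2, whose products inhibit the growth kinase complex mTORC1, and Trib3, Ddit3 and Chac1, which rise in prolonged stress. Xbp1 and Hspa5 belong to the unfolded protein response of the ER. In growing follicles FSH acts on granulosa cells through cAMP and PI3K signalling, which feed into mTORC1 as well. ATF4 is controlled in large part by translation, so its messenger RNA is an incomplete measure of the response.

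The promoter windows of 7 of the genes are shown, 5 because they hold letters of the ATF4 or ER stress type and those of Ddit4 and Sesn2 because these genes were called with both forms below. They are RefSeq windows on GRCm38.p6, 300 bases long with 250 bases before the RefSeq start, and all 10 genes had one. Capitals mark the fixed letters of any match, on either strand, to TGATGNAA (the core bound by ATF4 with C/EBP), TGACG (the core of cAMP response elements) or the ER stress element (CCAAT, 9 bases, CCACG). TGACGTCA, the full cAMP response element, was searched as well. On the minus strand TGATGNAA reads TT, any base, CATCA, and TGACG reads CGTCA.
Trib3: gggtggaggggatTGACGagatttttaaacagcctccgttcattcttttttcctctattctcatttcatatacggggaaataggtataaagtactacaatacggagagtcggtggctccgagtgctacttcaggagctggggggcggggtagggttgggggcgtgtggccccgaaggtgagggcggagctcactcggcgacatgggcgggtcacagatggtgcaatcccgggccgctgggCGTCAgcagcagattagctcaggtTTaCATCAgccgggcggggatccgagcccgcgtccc
Atf3: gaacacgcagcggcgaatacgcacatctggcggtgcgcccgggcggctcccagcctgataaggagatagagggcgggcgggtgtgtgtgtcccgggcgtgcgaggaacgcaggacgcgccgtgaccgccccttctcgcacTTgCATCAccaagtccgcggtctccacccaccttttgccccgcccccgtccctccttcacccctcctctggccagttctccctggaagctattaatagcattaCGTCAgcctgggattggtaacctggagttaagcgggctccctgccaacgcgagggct
Chac1: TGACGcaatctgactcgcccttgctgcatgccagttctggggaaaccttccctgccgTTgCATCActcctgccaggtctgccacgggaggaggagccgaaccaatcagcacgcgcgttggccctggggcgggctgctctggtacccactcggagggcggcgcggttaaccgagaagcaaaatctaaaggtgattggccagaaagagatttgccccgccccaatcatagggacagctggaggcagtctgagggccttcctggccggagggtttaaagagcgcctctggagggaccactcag
Asns: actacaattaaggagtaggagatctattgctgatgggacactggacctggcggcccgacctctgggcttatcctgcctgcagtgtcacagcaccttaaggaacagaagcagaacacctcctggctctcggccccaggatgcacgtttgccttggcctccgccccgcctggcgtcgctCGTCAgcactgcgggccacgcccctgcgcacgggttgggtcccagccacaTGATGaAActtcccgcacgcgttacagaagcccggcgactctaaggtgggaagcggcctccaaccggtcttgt
Hspa5: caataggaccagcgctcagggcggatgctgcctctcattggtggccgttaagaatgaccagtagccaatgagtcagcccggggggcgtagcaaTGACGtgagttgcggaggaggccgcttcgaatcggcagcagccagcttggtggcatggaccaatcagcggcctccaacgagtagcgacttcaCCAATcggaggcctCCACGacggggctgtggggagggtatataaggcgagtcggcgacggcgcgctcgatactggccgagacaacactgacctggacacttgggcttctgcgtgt
Ddit4: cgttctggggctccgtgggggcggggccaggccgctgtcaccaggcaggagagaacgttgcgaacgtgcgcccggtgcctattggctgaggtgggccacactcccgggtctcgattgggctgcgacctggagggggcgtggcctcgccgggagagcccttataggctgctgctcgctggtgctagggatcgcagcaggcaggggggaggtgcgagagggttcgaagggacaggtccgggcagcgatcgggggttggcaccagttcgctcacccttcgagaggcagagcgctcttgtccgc
Sesn2: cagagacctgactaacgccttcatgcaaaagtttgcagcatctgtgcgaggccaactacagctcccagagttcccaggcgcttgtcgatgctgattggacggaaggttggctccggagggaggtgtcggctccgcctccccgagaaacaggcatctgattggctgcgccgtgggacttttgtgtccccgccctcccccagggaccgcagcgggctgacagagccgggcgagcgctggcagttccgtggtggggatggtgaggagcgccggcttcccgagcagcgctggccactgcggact
The windows lie at chr2:152344011-152344310, minus strand for Trib3, chr1:191183284-191183583, minus strand for Atf3, chr2:119350992-119351291, plus strand for Chac1, chr6:7693160-7693459, minus strand for Asns, chr2:34771840-34772139, plus strand for Hspa5, chr10:59951721-59952020, minus strand for Ddit4 and chr4:132510407-132510706, minus strand for Sesn2. A match to TGATGNAA stood in 4 of the 10 windows, those of Atf3 and Chac1 (TGATGCAA, at bases 141 and 58 of the window), Asns (TGATGAAA, base 228) and Trib3 (TGATGTAA, base 265, past the RefSeq start). Over all 32544 distinct RefSeq windows of this length, 3.91% held such a match. TGACG stood in 6 of the 10 windows, against 20.9% of all windows, and TGACGTCA in 0, against 1.80%. The ER stress element occurred once, at base 186 of the Hspa5 window, against 0.120% of all windows. The windows of Ddit4, Sesn2, Ddit3 and Xbp1 held no match, which says only that these letters are not in these bases. Over the 10 genes the matches did not separate called from uncalled genes, since Trib3 held one and the uncalled Ddit3 and Xbp1 held none. RefSeq and GENCODE place some starts differently, and for Atf3 the GENCODE gene begins far upstream of the RefSeq start used here.

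Library totals ran from 17.5 to 22.5 M counts (M, mega) with a median of 21.4 M. Oocyte and granulosa markers were abundant in all libraries, and the 6 red blood cell markers summed to under 1 CPM. Of the immune list, 5 of 6 genes stayed under 1 CPM in all 18 libraries, and Tie1 of the endothelial list stayed there as well. With 10 ng/ml FSH21, 5 of 12 granulosa markers were higher and 1 lower, 2 of 8 theca markers were higher, and 0 of 12 oocyte markers were called, with a summed oocyte level of 4284 to 4828 CPM against 4870 to 5132 CPM in the high-dose controls. With 10 ng/ml FSH24, 3 granulosa markers were higher and 1 lower, 2 theca markers were higher, and the summed oocyte level was 4291 to 4615 CPM. Called higher with both forms were Foxl2, Gata4 and Kitl of the granulosa list and Cyp17a1 and Star of the theca list. Inhbb and Cyp19a1 were called higher with FSH21 only, and Fst lower with both. The calls of Inhbb and Cyp19a1 were lost in 6 and 5 of 11 alternatives. Fst was lost in 2 with FSH21 and 6 with FSH24, and with FSH24 Star was lost in 3 and Foxl2 in 1. Across all genes tested, 5.96% were called higher and 4.21% lower with FSH21, and 5.12% and 3.3% with FSH24. Because follicles are mixtures, fewer cells of a type and less RNA per cell cannot be told apart for any result below, and the part of these marker shifts in the results was not tested.

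Per length, the 10 genes spanned a wide range in untreated follicles. Hspa5 stood highest, at 266 RPKM (CPM per kilobase of exon) over the 6 untreated libraries, followed by Atf4 at 65.5, Ddit4 at 34.0, Xbp1 at 33.9, Asns at 15.3, Sesn2 at 8.27, Ddit3 at 6.24, Chac1 at 3.56, Trib3 at 1.55 and Atf3 at 0.659 RPKM. Ddit4 and Xbp1, neighbours in this order, did not differ beyond their spread. The low genes rest on few reads, with 22 to 90 counts per library for Atf3, 47 to 184 for Trib3 and 71 to 233 for Chac1, against 1047 to 3173 for Ddit4 and 530 to 1006 for Sesn2. No gene of the 10 was called between the high-dose and the low-dose controls, where edgeR called 0% of all genes, 1020 of 18727 genes had an unadjusted p under 0.05, and DESeq2 called 1 gene and none of the 10. Without any call, 12 of 12 oocyte markers had a log2 difference above 0 between the high-dose and the low-dose controls (median 0.19, summed level 4870 to 5132 CPM in the high-dose and 4008 to 4712 CPM in the low-dose controls), and so had 14 of 15 hypoxia genes (median 0.60).

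At 10 ng/ml, both forms of FSH raised the mTORC1 inhibitors Ddit4 and Sesn2. FSH21 also raised Trib3, and none of the 10 genes fell with either form. FSH21 called 3 of the 10 genes as higher, where 5.96% of all genes tested were called higher and 4.21% lower. FSH24 called 2 of the 10 as higher, where 5.12% of all genes were higher and 3.3% lower. All 3 FSH21 libraries lay above all 3 high-dose controls for 5 of the 10 genes, against 15.7% of all genes, and the FSH24 libraries did so for 4 of the 10, against 13.8% of all genes. The median log2 fold change of the 10 genes was 0.48 with FSH21 and 0.17 with FSH24, beside 0.00 over all genes in both comparisons. As the 10 genes were chosen with earlier results known, these values are no test of the group.

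Ddit4, also known as REDD1, restrains mTORC1 through the TSC complex (chromosome 10, 59949669 to 59951834, minus strand, GENCODE M21 on GRCm38). Its level was 118, 146 and 141 CPM in libraries 2, 3 and 4 with 10 ng/ml FSH21 and 107, 123 and 86.0 CPM with 10 ng/ml FSH24, against 62.4, 62.6 and 67.7 CPM in the high-dose controls. Neither treated group overlapped the controls, and the lowest treated library was number 4 of FSH24. The means were 135 ± 14.96 CPM with FSH21 and 105 ± 18.7 CPM with FSH24, against 64.2 ± 3.00 CPM in the controls (SD, n = 3 each). The log2 fold change was 1.07 (SE 0.14, adjusted p = 0.000103, edgeR) with FSH21 and 0.71 (SE 0.14, adjusted p = 0.00378, edgeR) with FSH24. Ddit4 is known to respond to hypoxia and to glucocorticoids as well as to ATF4. The 15 hypoxia genes listed summed to 1755 to 2177 CPM with FSH21 and 1066 to 1958 CPM with FSH24, against 1001 to 1515 CPM in the high-dose controls, with 0 of 15 called in either comparison and a median log2 change of 0.56 and 0.22. The 13 genes of FOXO and glucocorticoid response summed to 1472 to 1551 CPM with FSH21 and 1467 to 1637 CPM with FSH24, against 1765 to 1848 CPM, and 5 of them fell with each form, where 4.21% of all genes were called lower with FSH21 and 3.3% with FSH24. These were Klf15, Irs2, Pik3ip1, Foxo1 and Txnip, and of their calls that of Foxo1 with FSH24 (log2 fold change −0.41) was lost in 7 of 11 alternatives. Whether either list has a part in the rise of Ddit4 was not tested.

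Sesn2, or sestrin 2, is a leucine-binding protein that holds back mTORC1 by way of the GATOR2 complex (chromosome 4, 132492032 to 132510501, minus strand). It stood at 44.4, 46.2 and 41.0 CPM with 10 ng/ml FSH21 and at 40.9, 38.7 and 41.2 CPM with 10 ng/ml FSH24, against 26.9, 27.3 and 28.1 CPM in the high-dose controls. The 6 treated libraries were all above the 3 controls, which lay close together. Mean levels were 43.9 ± 2.64 CPM with FSH21 and 40.3 ± 1.35 CPM with FSH24, against 27.4 ± 0.646 CPM (SD, n = 3 each). The log2 fold change was 0.68 (SE 0.09, adjusted p = 0.000103, edgeR) with FSH21 and 0.55 (SE 0.09, adjusted p = 0.000935, edgeR) with FSH24. Sesn2 is also a known target of p53 and of NRF2. Over all genes, 5.96% were called higher with FSH21, and 5.12% higher and 3.3% lower with FSH24. Of 12 other p53 targets, 2 rose with FSH21, Cdkn1a and Btg2, and 1 rose with FSH24, Btg2. Of 10 NRF2 targets, 4 rose with FSH21, Nqo1 (log2 fold change 1.00), Hmox1 (0.78), Srxn1 (0.75) and Nfe2l2 itself (0.43), and with FSH24 Srxn1 (0.58) and Nfe2l2 (0.40) rose while Slc48a1 fell by 0.22 on the log2 scale. The calls of Cdkn1a and Hmox1 were lost in 6 of 11 alternatives, Nqo1 in 4, Slc48a1 in 7, and Btg2 in 5 with FSH21 and 4 with FSH24. The part of p53 and NRF2 in the rise of Sesn2 was not tested.

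Trib3 is a pseudokinase induced by ATF4 and its partner DDIT3, which binds AKT and feeds back on ATF4 (chromosome 2, 152337422 to 152344032, minus strand). It was measured at 6.36, 8.45 and 6.23 CPM with 10 ng/ml FSH21 and at 3.61, 7.73 and 5.08 CPM with 10 ng/ml FSH24, against 3.28, 2.43 and 3.53 CPM in the high-dose controls. The FSH21 libraries were clear of the controls, and the lowest FSH24 library lay just above the highest control. The log2 fold change was 1.19 (SE 0.27, adjusted p = 0.00736, edgeR) with FSH21. With FSH24 it was 0.83 (SE 0.27, adjusted p = 0.0722, edgeR), which was not called, although it was called without FSH24 library 2 (adjusted p = 0.0313), without the count filter (0.0473) and by DESeq2 (0.0475).

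Atf3 encodes a transcription factor of the ATF family that is quickly induced by stress and by cAMP (chromosome 1, 191170296 to 191218039, minus strand). It was at 4.69, 4.13 and 1.92 CPM with 10 ng/ml FSH21 and at 3.33, 4.26 and 2.68 CPM with 10 ng/ml FSH24, against 1.50, 2.34 and 1.27 CPM in the high-dose controls. FSH21 library 4 fell inside the range of the controls, whereas the FSH24 libraries lay above it. The log2 fold change of 1.07 (SE 0.35, adjusted p = 0.0637, edgeR) with FSH21 and of 1.01 (SE 0.35, adjusted p = 0.0930, edgeR) with FSH24 did not pass. A replicate block in the fit turned both into calls, FSH21 at 1.04 (adjusted p = 0.0234, edgeR) and FSH24 at 1.02 (adjusted p = 0.0276, edgeR). All 6 treated libraries lay above the control of their own number, but both forms share these controls. The numbers were not taken as pairing, and the share of all genes with this order was not counted. Without FSH21 library 4 the FSH21 value was 1.37 and was called (adjusted p = 0.0195). It was also called without high-dose control 3 (0.0476) and by DESeq2 (0.0455).

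**Figure D1:**
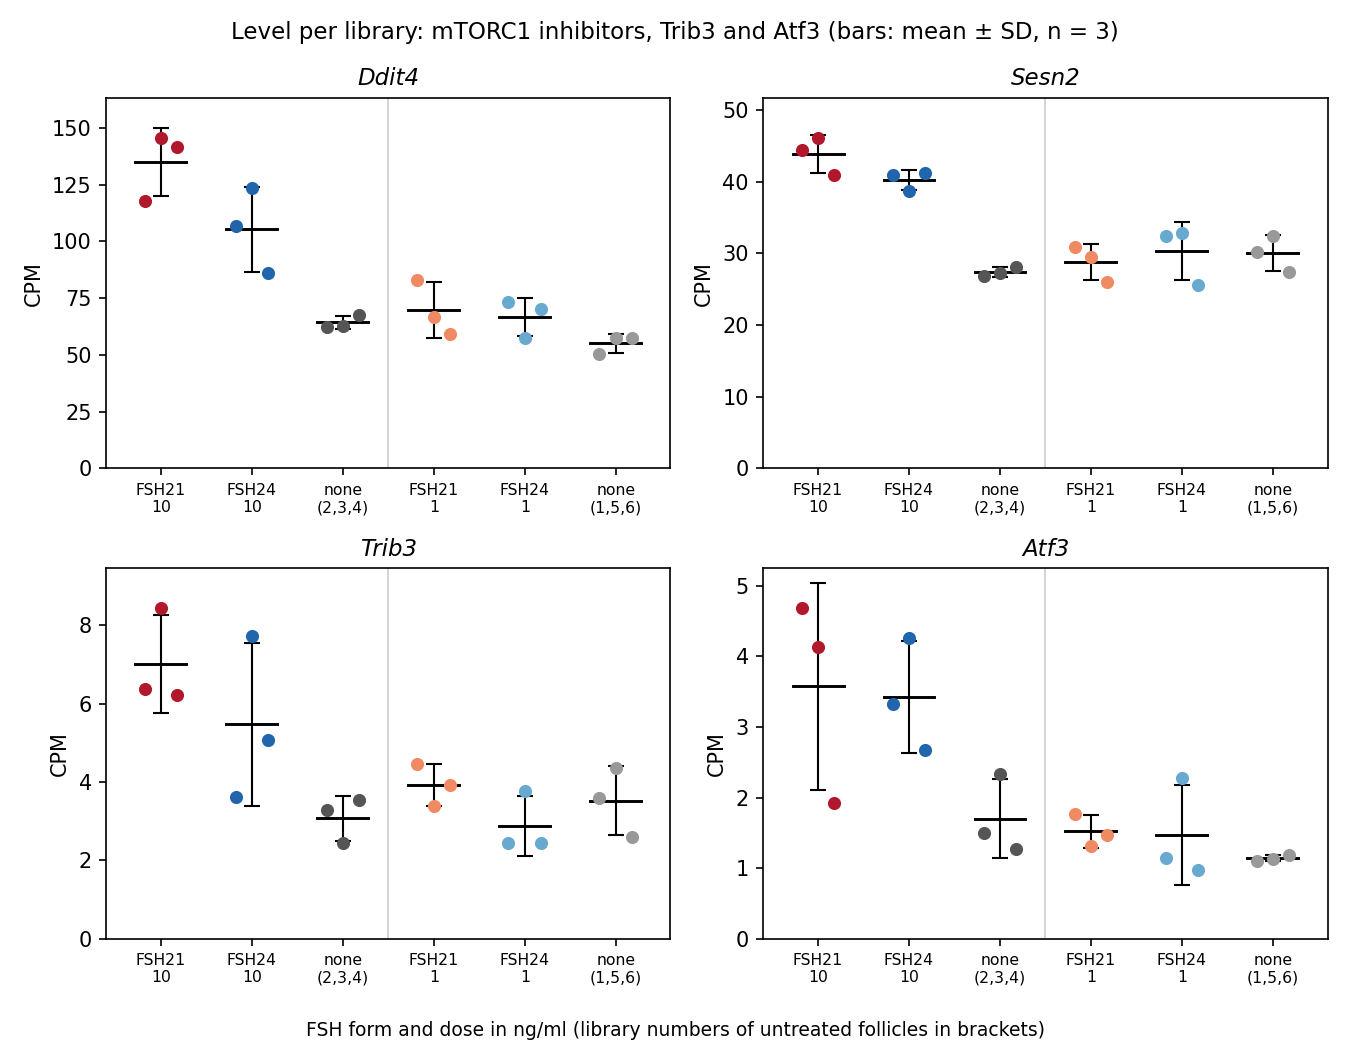
Level in CPM of Ddit4, Sesn2, Trib3 and Atf3 in each library (points) by group, with the mean and SD of 3 libraries in black; the grey line parts the 10 ng/ml groups and their untreated libraries from the 1 ng/ml groups and theirs. For Ddit4 and Sesn2 all 6 libraries with 10 ng/ml stand above all untreated libraries, whereas 1 Atf3 library with FSH21 lies at 1.92 CPM among its controls.

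The remaining genes of the ATF4 branch were not called at 10 ng/ml. Atf4 itself (chromosome 15, 80255184 to 80257541, plus strand) was at 201, 195 and 190 CPM with FSH21 and at 165, 189 and 160 CPM with FSH24, against 180, 142 and 148 CPM in the high-dose controls. All FSH21 libraries exceeded the controls, the FSH24 libraries overlapped them, and the log2 fold change was 0.32 (SE 0.13, adjusted p = 0.170, edgeR) and 0.13 (SE 0.13, adjusted p = 0.679, edgeR). Ddit3, which encodes CHOP, the C/EBP-type partner of ATF4 (chromosome 10, 127290774 to 127296288, plus strand), was at 13.9, 13.2 and 12.8 CPM with FSH21 and at 13.1, 13.3 and 10.5 CPM with FSH24, against 9.78, 11.3 and 12.1 CPM. Its log2 fold change was 0.26 (SE 0.14, adjusted p = 0.301, edgeR) with FSH21 and 0.15 (SE 0.14, adjusted p = 0.627, edgeR) with FSH24. Ddit3 is uncertain in its level because the table also lists a second identifier of that symbol, within the same stretch, which took at most 9.15 counts in a library.

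Chac1, which breaks down glutathione and is an ATF4 target of late stress (chromosome 2, 119351229 to 119354381, plus strand), stood at 9.60, 10.7 and 6.99 CPM with FSH21 and at 5.89, 7.13 and 6.91 CPM with FSH24, against 8.09, 5.13 and 4.34 CPM in the high-dose controls. Both treated groups overlapped the controls, of which number 2 was far above the other two. The log2 fold change was 0.64 (SE 0.27, adjusted p = 0.175, edgeR) with FSH21 and 0.18 (SE 0.28, adjusted p = 0.796, edgeR) with FSH24. Asns, asparagine synthetase and the textbook target of the amino acid response (chromosome 6, 7675169 to 7693254, minus strand), stood at 42.0, 52.1 and 37.4 CPM with FSH21 and at 41.0, 51.7 and 34.0 CPM with FSH24, against 48.9, 32.4 and 32.3 CPM. Here too control number 2 was the highest control and lay within the treated range. Its log2 fold change was 0.21 with FSH21 (95% interval −0.22 to 0.64) and 0.16 with FSH24 (−0.27 to 0.58). A change of the size seen for Ddit4 with FSH21 lies outside both intervals. The change of Sesn2 with the same form lies just outside the FSH21 interval (0.68) but inside that of FSH24 (0.55).

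The 2 genes of the ER unfolded protein response had the smallest fold changes of the 10 at 10 ng/ml. Xbp1, a transcription factor of that response (chromosome 11, 5520659 to 5525893, plus strand), was at 118, 122 and 112 CPM with FSH21 and at 103, 119 and 104 CPM with FSH24, against 122, 113 and 104 CPM in the high-dose controls. The groups overlapped, and the log2 fold change was 0.06 with FSH21 (95% interval −0.15 to 0.26) and −0.06 with FSH24 (−0.26 to 0.14). A gene count sums the spliced and unspliced forms of Xbp1, which were not measured apart. Hspa5, the ER chaperone BiP (chromosome 2, 34771970 to 34777547, plus strand), was at 1146, 1311 and 1225 CPM with FSH21 and at 1009, 1316 and 1075 CPM with FSH24, against 1149, 1040 and 1109 CPM. Its log2 fold change was 0.16 with FSH21 (95% interval −0.06 to 0.38) and 0.04 with FSH24 (−0.18 to 0.26). For both genes each interval ends below the fold change of Ddit4 with the same form.

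**Figure D2:**
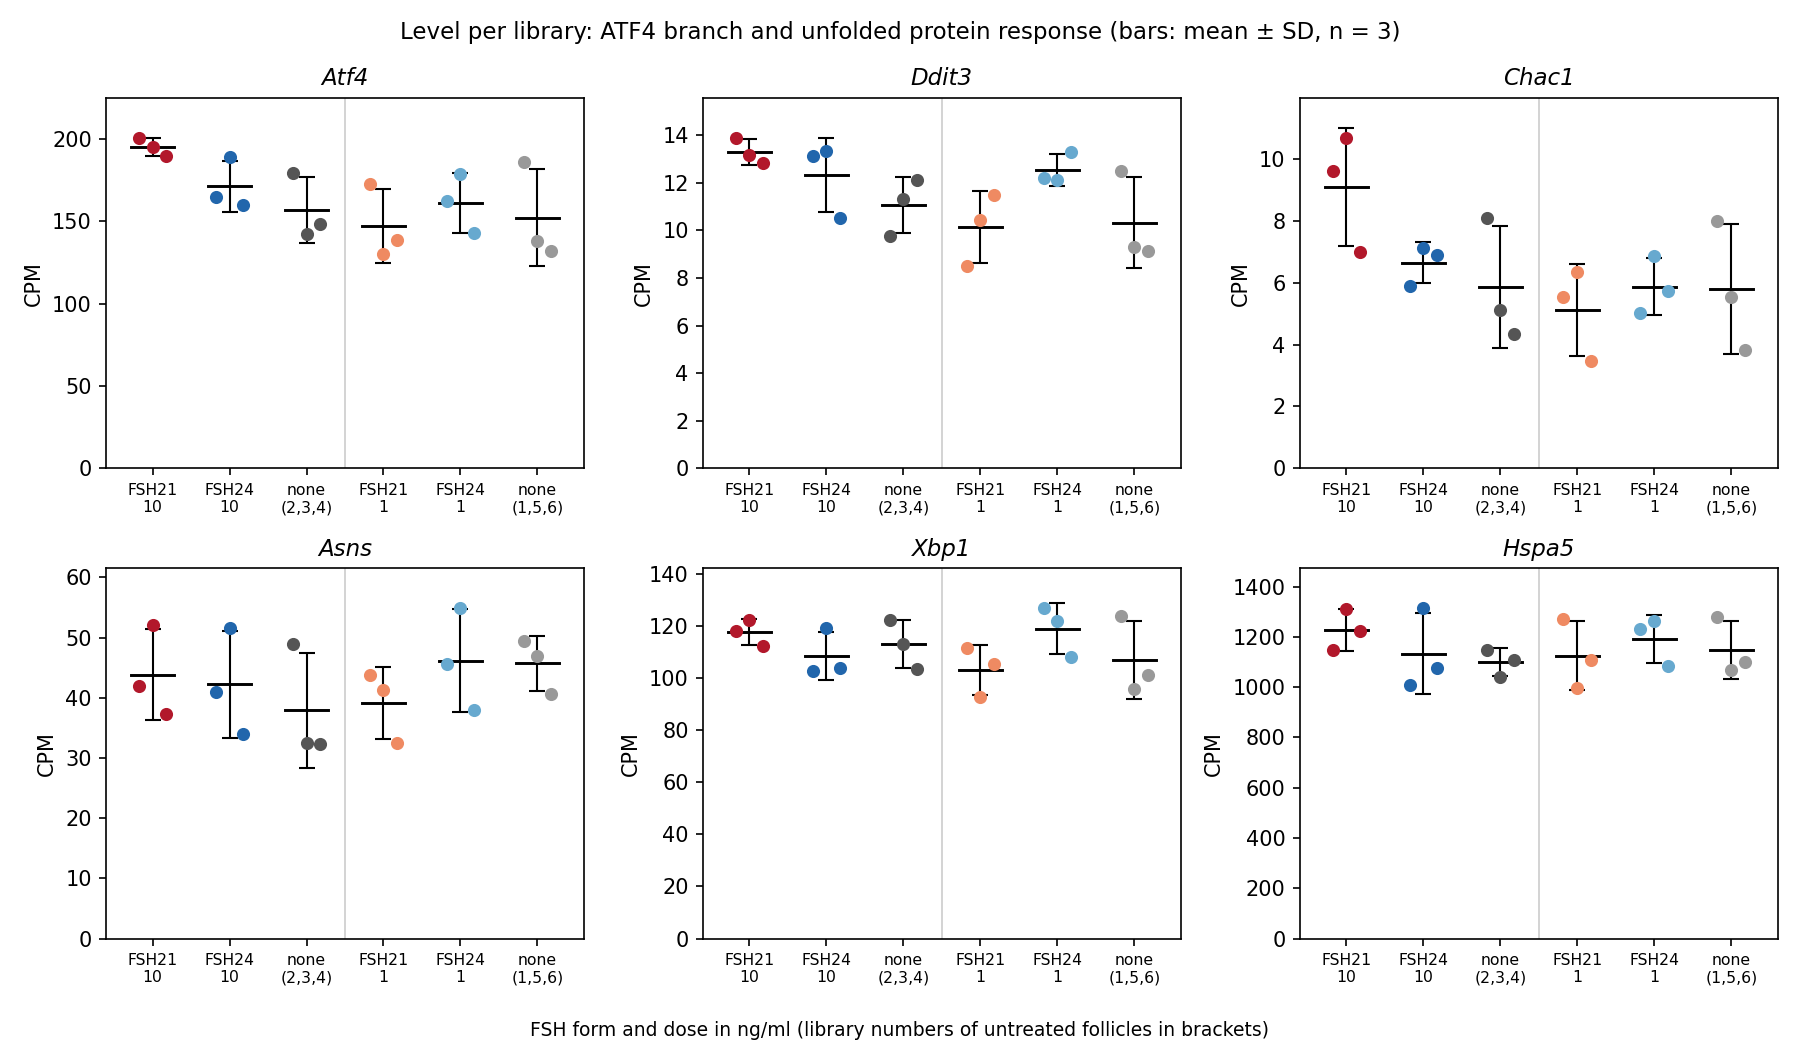
Level in CPM of Atf4, Ddit3, Chac1, Asns, Xbp1 and Hspa5 in each library (points) by group, drawn as for the mTORC1 inhibitors with the mean and SD of 3 libraries. Treated and untreated libraries overlap in most panels, and untreated libraries of one group can differ as much as groups do, as Asns does at 48.9 and 32.3 CPM.

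At 1 ng/ml none of the 10 genes was called with either form. FSH21 at 1 ng/ml called 0.128% of all genes and FSH24 at 1 ng/ml called 0%, with 1370 and 1119 genes at an unadjusted p under 0.05. Of the 10 genes, 1 was at such a p with FSH21 and 0 with FSH24, and DESeq2 called 0 in both. Ddit4 was at 83.1, 66.6 and 59.1 CPM with FSH21 and at 73.1, 57.3 and 70.1 CPM with FSH24 (libraries 1, 5 and 6), against 50.2, 57.5 and 57.3 CPM in the low-dose controls. Every FSH21 library lay above the controls, by little for number 6. The log2 fold change of Ddit4 was 0.34 (SE 0.14, unadjusted p = 0.0277, adjusted p = 0.598, edgeR) with FSH21 and 0.28 (SE 0.14, adjusted p = 0.815, edgeR) with FSH24. Sesn2 was at 30.9, 29.4 and 26.0 CPM with FSH21 and at 32.5, 32.8 and 25.6 CPM with FSH24, against 30.2, 32.5 and 27.4 CPM. Its groups overlapped, and the log2 fold change was −0.06 with FSH21 (95% interval −0.26 to 0.14) and 0.01 with FSH24 (−0.19 to 0.21). Trib3 was at 4.45, 3.40 and 3.92 CPM with FSH21 and at 2.43, 3.76 and 2.45 CPM with FSH24, against 3.60, 4.36 and 2.60 CPM, with overlapping groups. For the other 7 genes the log2 fold change lay between −0.22 and 0.41 with FSH21 and between 0.01 and 0.36 with FSH24.

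**Figure D3:**
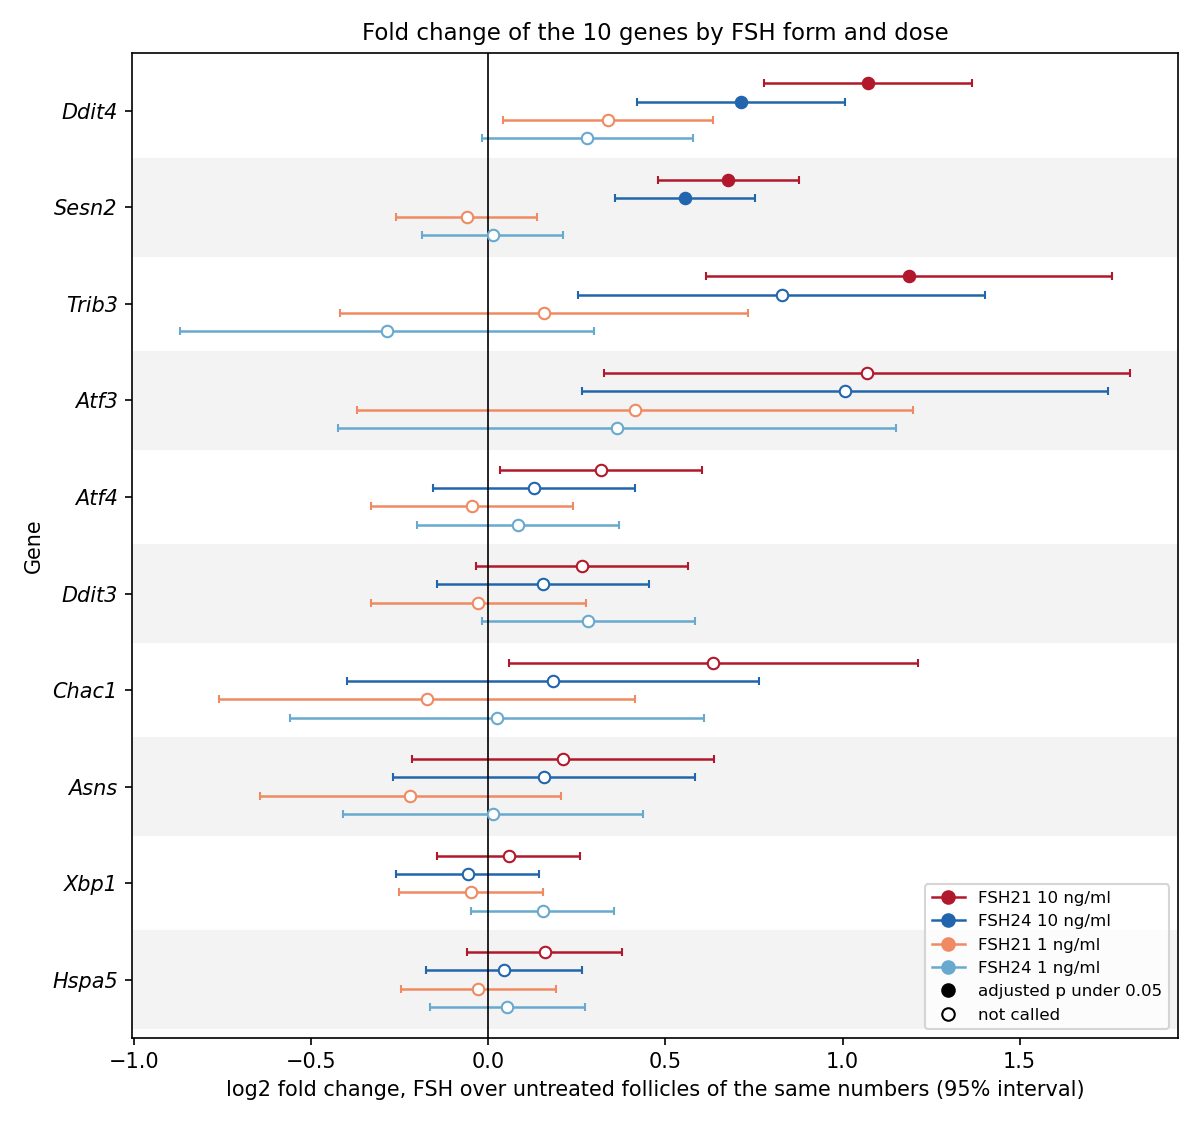
Log2 fold change of each of the 10 genes with FSH over the untreated libraries of the same numbers (points) with its 95% interval (bars), for both forms and doses; filled points were called at an adjusted p under 0.05 in edgeR. The 5 filled points are Ddit4 and Sesn2 with both forms and Trib3 with FSH21, all at 10 ng/ml.

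The dose itself was tested as the difference between the effect at 10 ng/ml and that at 1 ng/ml, each against its own controls. Sesn2 was the 1 gene of the 10 called, for both forms. Its effect at 10 ng/ml was larger by 0.74 on the log2 scale with FSH21 (SE 0.13, adjusted p = 0.0238, edgeR), where 0.272% of all genes were called, and by 0.54 with FSH24 (SE 0.13, adjusted p = 0.0368, edgeR), where 2.45% were called. Each of these calls was lost without 8 of the 12 libraries it rests on, left out one at a time, with adjusted p up to 0.0859 for FSH21 and up to 0.135 for FSH24, and in all of those settings the difference stayed positive. For Ddit4 the difference was 0.73 (SE 0.20, adjusted p = 0.217, edgeR) with FSH21, called by DESeq2 (0.0225), and 0.43 (SE 0.20, adjusted p = 0.308, edgeR) with FSH24. For Trib3 it was 1.03 (SE 0.39, adjusted p = 0.521, edgeR) and 1.11 (SE 0.39, adjusted p = 0.161, edgeR). The libraries of the 2 doses carry different numbers, so dose and number set cannot be told apart beyond what the separate controls remove. In the dose difference 0 of 12 oocyte markers were above 0 with FSH21 and 2 of 12 with FSH24 (median −0.11 with each form), and of the 15 hypoxia genes 12 were above 0 with FSH21 (median 0.29) and 4 with FSH24 (median −0.16), none of them called. The part of these shifts in the dose difference of Sesn2 was not tested.

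The 2 forms were also compared directly at equal dose, for 10 genes at each of 2 doses. None of the 10 genes was called, at 10 ng/ml (0% of all genes called, 410 genes at an unadjusted p under 0.05) or at 1 ng/ml (0.0107% called, 1770 genes at such a p). The number of the 10 at an unadjusted p under 0.05 was 1 at the high dose and 2 at the low dose, and DESeq2 called 0 of them at either dose. At 10 ng/ml the log2 value was higher with FSH21 than with FSH24 for all 10 genes, beside 49.3% of all genes. It was so too for 10 of 10 NRF2 targets, 13 of 15 hypoxia genes and 10 of 12 oocyte markers. The other way went most stroma and smooth muscle markers, with 1 of 8 higher. Some of the 10 genes varied together within groups, so their signs are not independent. The libraries of the forms overlapped for all but Atf4, and the share over all genes was not counted. At 1 ng/ml the log2 value was higher with FSH21 for 3 of the 10, beside 50.8% of all genes. Ddit4 differed by 0.36 (95% interval 0.07 to 0.65, unadjusted p = 0.0187, adjusted p = 1, edgeR), Sesn2 by 0.12 (−0.07 to 0.32) and Trib3 by 0.36 (−0.20 to 0.92). At 1 ng/ml the difference of FSH21 from FSH24 was 0.06 for Ddit4 (−0.24 to 0.35), −0.07 for Sesn2 (−0.27 to 0.13) and 0.44 for Trib3 (−0.14 to 1.03). The unadjusted differences at 1 ng/ml were in Ddit3 (−0.31, adjusted p = 0.514, edgeR) and Xbp1 (−0.20, adjusted p = 0.528, edgeR). These intervals leave room for differences between the forms, for Trib3 up to 0.92 at 10 ng/ml and 1.03 at 1 ng/ml. A p above the threshold does not show that the forms act alike.

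Across libraries the 10 genes fell into different patterns. Over the 18 libraries log2 CPM of Ddit4 and Sesn2 correlated with Pearson r = 0.84, but after each group's mean was removed r was 0.03. Atf4 and Xbp1 correlated with r = 0.76 over the 18 libraries and 0.86 after removal of the group means, Xbp1 and Hspa5 with 0.78 and 0.83, and Chac1 and Asns with 0.58 and 0.73. Thus Ddit4 and Sesn2 varied together between groups, where both were called at 10 ng/ml, with an r near 0 within them. Groups of 3 libraries are too few to exclude a correlation of Ddit4 and Sesn2 within groups. Atf4, Xbp1 and Hspa5 varied together among libraries of the same group. These points share libraries and depth, and the values are a description. In the high-dose controls, for example, library 2 was the highest of the 3 for Atf4, Chac1, Asns, Xbp1 and Hspa5, and in the low-dose controls library 1 was the highest for these 5 genes and for Ddit3.

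**Figure D4:**
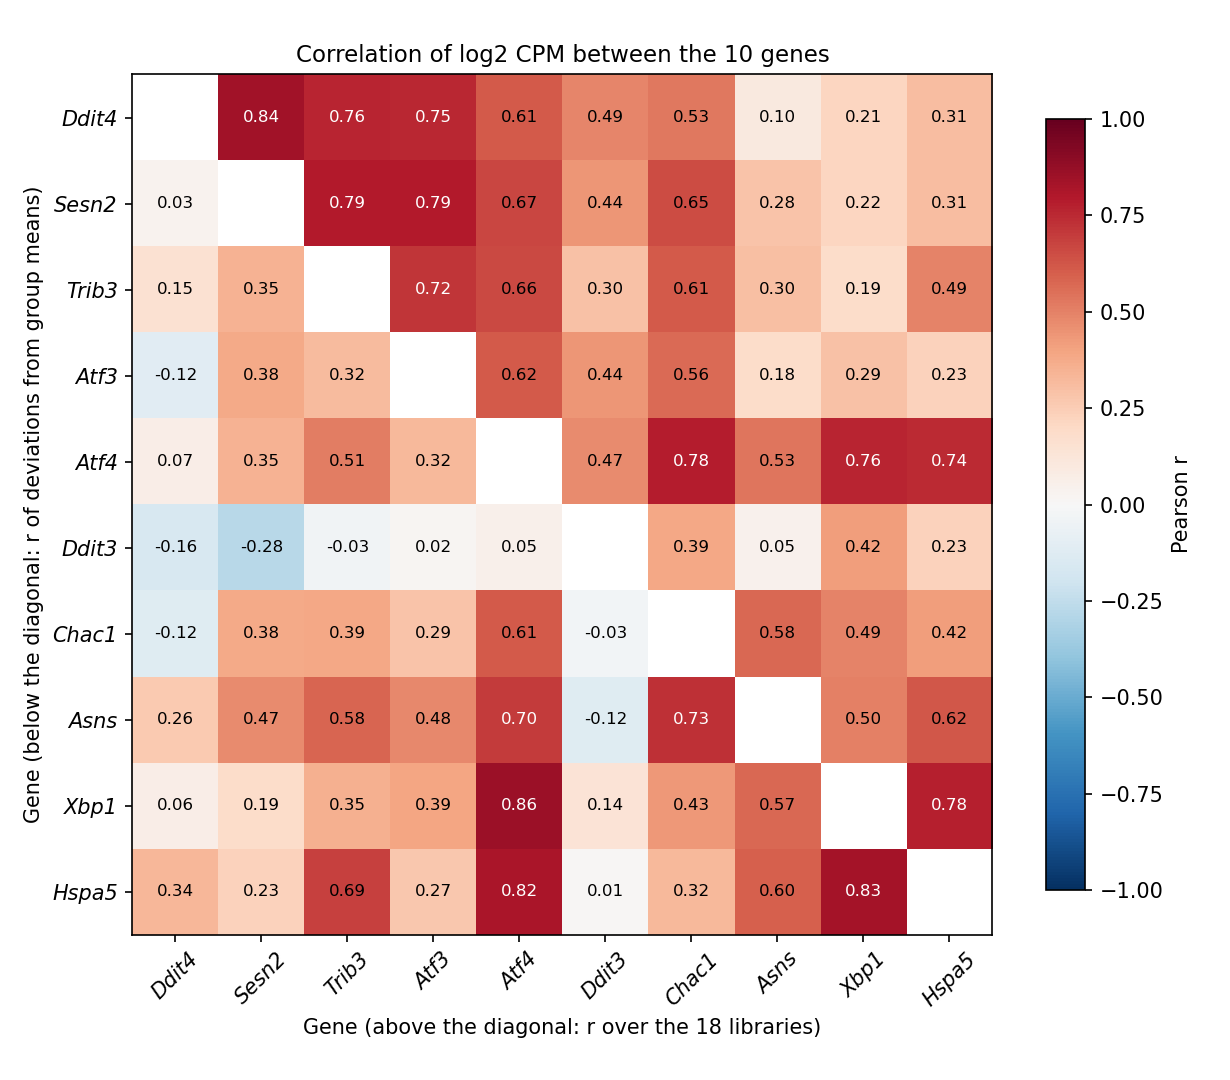
Pearson r of log2 CPM between the 10 genes, above the diagonal over the 18 libraries and below it for deviations from the group means. Ddit4 and Sesn2 change from 0.84 above to 0.03 below, and Atf4, Xbp1 and Hspa5 stay between 0.74 and 0.86.

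The genes most like the 3 called ones over the 18 libraries were listed by Pearson r. For Ddit4 they were Hk1, the glycolytic hexokinase (r = 0.98), Bhlhe41, a helix-loop-helix repressor (0.96), and Aldh3b1, an aldehyde dehydrogenase (0.95). For Sesn2 they were Olfm1 (0.94), Srxn1, the enzyme that repairs oxidised peroxiredoxins (0.94), and Cyp1b1, a cytochrome P450 (0.92). For Trib3 they were Fdps, farnesyl diphosphate synthase (0.92), the nucleotidase Nt5c (0.92) and Aars, alanyl-tRNA synthetase (0.91).

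Upstream of ATF4 stand the kinases and regulators of eIF2α. Of 16 genes tested, 1 was higher and 0 lower with 10 ng/ml FSH21, and the same counts held with 10 ng/ml FSH24, close to the share of all genes called higher (5.96% and 5.12%). With FSH21 it was Ppp1r15a, or GADD34, the stress-induced subunit of the phosphatase that reverses eIF2α phosphorylation, at 58.6 ± 1.29 CPM against 48.3 CPM in the high-dose controls (log2 fold change 0.28, adjusted p = 0.0176, edgeR). With FSH24 it was Eif2ak2, or PKR, the kinase activated by double-stranded RNA, at 41.3 ± 4.30 CPM against 31.3 CPM (0.40, adjusted p = 0.0204, edgeR). The list's median log2 change was 0.00 with FSH21 and −0.02 with FSH24, beside 0.00 over all genes. The call of Ppp1r15a was lost in 5 of 11 alternatives and that of Eif2ak2 in 3.

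Of 31 other ATF4 partners and targets, 5 rose with 10 ng/ml FSH21 and 4 with 10 ng/ml FSH24, and 0 fell. The shares of all genes called higher were 5.96% and 5.12%, and those called lower 4.21% and 3.3%. This list too was chosen with earlier results of these data known. With FSH21 these were the neutral amino acid transporter Slc1a4 (27.6 ± 3.21 CPM against 16.2 CPM, log2 fold change 0.76), the transcription factor Atf5 (0.52), Slc7a5, the light chain of the leucine transporter LAT1 (0.45), the autophagy receptor Sqstm1 (0.41) and Pck2, the mitochondrial phosphoenolpyruvate carboxykinase (0.40). With FSH24 they were Slc1a4 (24.6 ± 4.09 CPM, 0.60), Atf5 (0.43), Pck2 (0.35) and Sqstm1 (0.33). Their adjusted p lay between 0.000640 and 0.0106 with FSH21 and between 0.00255 and 0.0394 with FSH24 (edgeR). The median of the 31 was 0.17 with FSH21, 24 of them being above 0, and 0.08 with FSH24, with 22 above 0, beside 49.992% of all genes above 0 in each comparison. The calls of Pck2 and Sqstm1 with both forms and of Slc1a4 with FSH21 held in all 11 alternatives, while Slc7a5 was lost in 3, Slc1a4 with FSH24 in 3, and Atf5 in 2 with FSH21 and 6 with FSH24. Sqstm1 is a target of NRF2 as well.

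The cytosolic aminoacyl-tRNA synthetases, which charge tRNAs and include many ATF4 targets, did not move in 1 direction. Of 20 tested, 2 rose and 3 fell with FSH21, and 1 rose and 1 fell with FSH24. Beside these stand 5.96% of all genes called higher and 4.21% lower with FSH21, and 5.12% and 3.3% with FSH24. Aars was higher with both forms, at 226 ± 11.6 CPM with FSH21 and 217 ± 16.1 CPM with FSH24, against 163 CPM in the high-dose controls (log2 fold change 0.47 and 0.42, adjusted p = 0.000123 and 0.000578, edgeR), and Cars, for cysteine, was higher with FSH21 (0.34, adjusted p = 0.0329). Vars, for valine, was lower with both, at 75.5 ± 3.56 CPM and 79.6 ± 6.87 CPM against 98.5 CPM, and Farsb and Kars, for phenylalanine and lysine, fell with FSH21. Aars and Vars were called in all 11 alternatives with both forms, whereas Cars and Kars were lost in 4 and Farsb in 3. The list's median was 0.00 with FSH21 and −0.02 with FSH24.

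Among 28 ER chaperones and unfolded protein response genes, 1 rose and 1 fell with FSH21, and 2 rose and 1 fell with FSH24. These counts are close to the shares of all genes called. Those were 5.96% higher and 4.21% lower with FSH21, and 5.12% higher and 3.3% lower with FSH24. Edem1, which passes misfolded glycoproteins on for degradation, was at 82.6 ± 2.65 CPM with FSH21 and 75.4 ± 8.37 CPM with FSH24, against 61.5 CPM (log2 fold change 0.43 and 0.29, adjusted p = 0.000600 and 0.0131, edgeR). Derl3, of the same degradation pathway, was at 42.2 ± 3.62 CPM and 42.1 ± 1.49 CPM, against 61.5 CPM (−0.54 with each form, adjusted p = 0.000406 and 0.000549, edgeR). Atf6, an ER stress sensor, rose with FSH24 (0.21, adjusted p = 0.0386), a call lost in 8 of 11 alternatives, and the Edem1 call with FSH24 was lost in 4. The list's median was 0.07 with FSH21 and 0.01 with FSH24.

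Around mTORC1, 34 genes of the complex, its amino acid sensors and its regulators were tested. With FSH21 0 rose and 2 fell, and with FSH24 0 rose and 1 fell. These falls are close to the share of all genes called lower, 4.21% with FSH21 and 3.3% with FSH24. The shares called higher were 5.96% and 5.12%. The list's median log2 change was −0.01 with FSH21 and −0.03 with FSH24. Wdr59, a subunit of the GATOR2 complex that sestrin 2 binds, fell with both, at 99.5 ± 12.9 CPM with FSH21 and 105 ± 12.5 CPM with FSH24, against 163 CPM in the high-dose controls (log2 fold change −0.71 and −0.64, adjusted p = 0.000696 and 0.00218, edgeR). Flcn, folliculin, which acts on the Rag GTPases that bring mTORC1 to the lysosome, fell with FSH21 (30.2 ± 1.27 CPM against 39.1 CPM, −0.37, adjusted p = 0.00289, edgeR).

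The paralogs of the 10 genes show which relatives moved. Sesn3 was at 190 ± 7.13 CPM with 10 ng/ml FSH21 and 187 ± 24.2 CPM with 10 ng/ml FSH24, against 119 ± 20.1 CPM in the high-dose controls (log2 fold change 0.68 and 0.66, adjusted p = 0.000377 and 0.000728, edgeR). Sesn1, by contrast, was at 33.1 ± 1.77 CPM and 36.6 ± 0.666 CPM against 38.4 ± 1.54 CPM and was not called (−0.21 and −0.07). Ddit4l, the relative of Ddit4, was at 116 ± 5.30 CPM and 114 ± 4.75 CPM against 88.7 ± 2.08 CPM (0.39 and 0.37, adjusted p = 0.00181 and 0.00346, edgeR). Trib1 and Trib2, the relatives of Trib3, were not called (−0.09 and −0.12 with FSH21, −0.14 and −0.05 with FSH24). Chac2 (0.54 with FSH21, 0.45 with FSH24), Hspa8 (−0.18 with both) and Hspa9 (−0.10 and −0.14) were not called either. At 1 ng/ml 0 genes of these 6 lists around the pathway were called with either form in edgeR, and the list medians lay between −0.07 and 0.03.

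**Figure D5:**
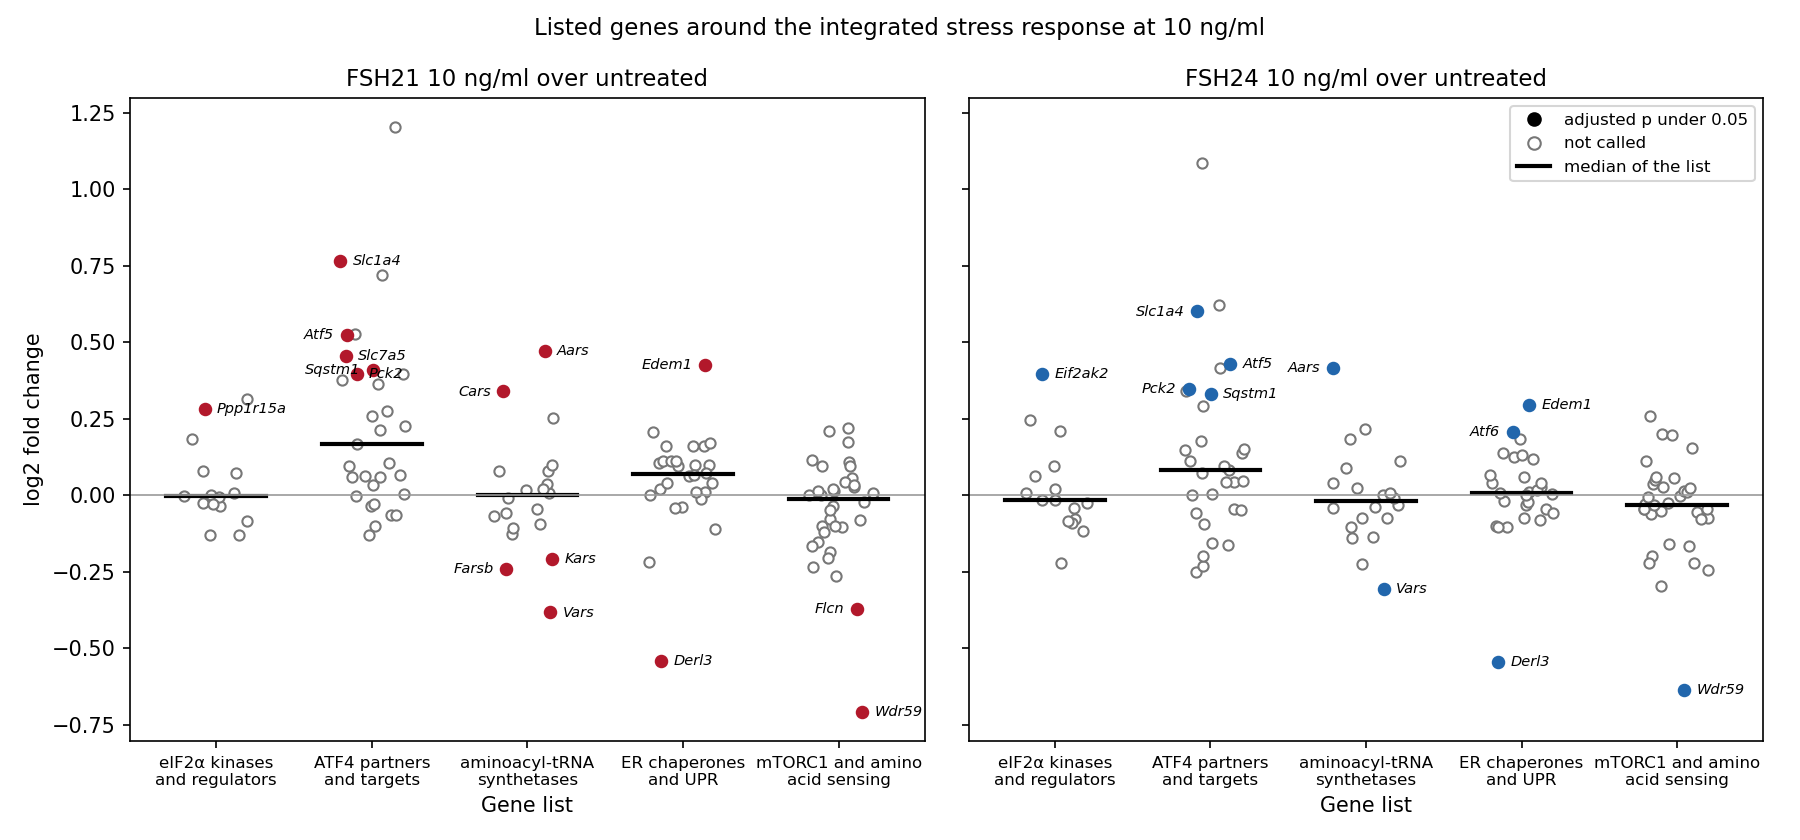
Log2 fold change with 10 ng/ml FSH21 (left) and 10 ng/ml FSH24 (right) over the high-dose controls for the listed genes (points) of 5 lists, with the list median as a black line; filled and named points were called at an adjusted p under 0.05 in edgeR. The list of ATF4 partners and targets has its median at 0.17 with FSH21 and 0.08 with FSH24, and the other lists between −0.03 and 0.07.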

How the data were processed

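The authors deposited RSEM expected counts (named so per the file headers), with 4 lanes merged into 1 column for each of 18 libraries. STAR 2.7, bcl2fastq, FastQC and mm10 are named per the submitters' processing notes; not given in the sources used here were the RSEM version, annotation and strand setting, so overlapping antisense genes cannot be told apart. Values were rounded, since 33.9% of those above 0 were fractional. With edgeR 4.0.16 in R 4.3.3, genes passed filterByExpr (minimum count 10), TMM scaling and a robust quasi-likelihood fit of 6 groups without a block, and p-values were adjusted over 18727 genes. DESeq2 1.42.0 was an alternative. The procedure was tested on simulated data. RPKM used the exon union of GENCODE M21. The members and the lists were chosen with earlier results of these data known. From each list, all genes called at 10 ng/ml were named. All paralogs and the 3 most similar genes of each called member were named as well. The numbers did not meet the criterion for pairing: 12 of 18 same-number pairs of libraries correlated over 0.1 (0.0496 to 0.235), among them all 3 of 10 ng/ml FSH21 with its controls. Libraries of a group differed 9.30 to 25.1 times more than Poisson counts, so none was a duplicate.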

Additional observations from a re-analysis of the deposited data

Results flagged for a closer look

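The FSH effect on Sesn2, the leucine-binding inhibitor of mTORC1, differed between doses by an interaction test in the fit over all genes. With FSH21 the log2 effect at 10 ng/ml exceeded that at 1 ng/ml by 0.74 (SE 0.13, adjusted p = 0.0238, edgeR), with levels of 41.0 to 46.2 CPM at 10 ng/ml and 26.0 to 30.9 CPM at 1 ng/ml. With FSH24 it did so by 0.54 (SE 0.13, adjusted p = 0.0368, edgeR), with 38.7 to 41.2 CPM at 10 ng/ml and 25.6 to 32.8 CPM at 1 ng/ml. Both differences are positive in all 12 settings that leave out 1 library, and each is called in 4 of them. Groups of 3 libraries were too small to be searched for single libraries that stand apart.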

How the results depend on the processing

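Of the 1070 values of single members under the alternatives, 985 kept their direction and their side of the threshold, 9 gained a call, 16 lost one (all of them the dose difference of Sesn2) and 60 changed sign, all among uncalled members with 1 library left out. The calls of Ddit4 and Sesn2 with both forms at 10 ng/ml, and of Trib3 with FSH21, held in every alternative run. That of Trib3 came close to the threshold, with an adjusted p of up to 0.0480 (edgeR) when 1 library was left out. The members called with 10 ng/ml numbered 3 or 4 with FSH21 and 2 or 3 with FSH24, and 0 at 1 ng/ml throughout. The replicate numbers were shared between groups but not taken as pairing. Each of the 18 libraries nevertheless had its highest mean correlation, by number, with the libraries of its own number in the other groups. With a replicate block, Atf3 was called with FSH21 (1.04, adjusted p = 0.0234) and FSH24 (1.02, adjusted p = 0.0276) at 10 ng/ml, and genes called numbered 2547 with 10 ng/ml FSH24 (1577 without it), 226 with 1 ng/ml FSH21 (24), 177 between forms at 1 ng/ml (2), and 229 (51) and 1180 (458) for the dose difference of FSH21 and FSH24. Without the count filter they numbered 59 with 1 ng/ml FSH21, 65 between forms at 1 ng/ml and 102 for the FSH21 dose difference. With only the 9 libraries of a number set, 1 gene was called with 1 ng/ml FSH21 and 1 between forms at 1 ng/ml. DESeq2 called 107 with 1 ng/ml FSH21, 1 with 1 ng/ml FSH24, 5 and 213 between forms at 10 and 1 ng/ml, 163 (with 2 members) and 839 for the dose differences of FSH21 and FSH24, and 1 between controls.

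Leaving out 1 library at a time, genes called ranged from 1250 to 1630 with 10 ng/ml FSH21, lowest without high-dose control 4, and from 982 to 1439 with 10 ng/ml FSH24, lowest without high-dose control 4, with 995 without FSH24 library 4 and 1029 without FSH24 library 2. They ranged from 0 to 21 with 1 ng/ml FSH21, 0 to 1 with 1 ng/ml FSH24, 0 to 1 and 0 to 7 between forms at 10 and 1 ng/ml, 20 to 66 and 217 to 517 for the dose differences of FSH21 and FSH24 (members called, 0 to 1 in each), and 0 to 1 between controls. Log2 values that changed sign in this way ranged as follows. With 10 ng/ml FSH21, Xbp1 was −0.022 to 0.10. With 10 ng/ml FSH24, Chac1 was −0.016 to 0.47, Asns −0.015 to 0.37 and Hspa5 −0.077 to 0.11. With 1 ng/ml FSH21, Sesn2 was −0.13 to 0.0017, Trib3 −0.026 to 0.33, Atf4 −0.18 to 0.12, Ddit3 −0.13 to 0.13, Chac1 −0.41 to 0.13, Xbp1 −0.13 to 0.067 and Hspa5 −0.12 to 0.056. With 1 ng/ml FSH24, Sesn2 was −0.051 to 0.12, Atf4 −0.0092 to 0.25, Atf3 −0.10 to 0.59, Chac1 −0.20 to 0.33 and Asns −0.13 to 0.14. Between forms, Atf3 was −0.18 to 0.37 and Asns −0.085 to 0.23 at 10 ng/ml, and Ddit4 −0.088 to 0.16, Atf3 −0.17 to 0.51 and Chac1 −0.38 to 0.010 at 1 ng/ml. For the dose difference Xbp1 was −0.011 to 0.17 with FSH21, and Atf4 −0.13 to 0.14, Chac1 −0.15 to 0.45, Asns −0.028 to 0.36 and Hspa5 −0.13 to 0.046 with FSH24. Between controls Atf4 was −0.067 to 0.21, Chac1 −0.29 to 0.32 and Hspa5 −0.11 to 0.021. The cause of these changes was not tested. Of 65 calls of listed genes against controls, 40 held in every alternative. Depth limits Atf3, at 22 to 90 counts per library, and Trib3, at 47 to 184, most.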
